A study of Mus musculus with 24 samples.

Results

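The genes described here are 9 members of the transforming growth factor beta (TGF-β) pathway and its relative, the bone morphogenetic protein (BMP) pathway. They are the 3 TGF-β ligands Tgfb1, Tgfb2 and Tgfb3 and 6 genes known to be induced by these pathways, namely Id1, Id2, Id3, Smad6, Smad7 and Ctgf. They were chosen by name. A probe was taken where its gene symbol on the array was 1 of the 9 names or an older synonym, which gave 11 of 41174 probes and 9 of the 18076 genes that had a named probe. Id1 and Id2 had 2 probes each and the other members 1 each. All 11 probes were well above background on all 24 arrays, as the image software calls it, and none was saturated.

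The arrays measured mRNA in immortalized mouse embryonic fibroblasts that lack Ku70, a protein of DNA end joining encoded by Xrcc6. Every group carried this deletion, controls included, and 1 such line was used, so that nothing can be said of cells with Ku70. In the first set of 15 arrays, cells were left untreated, were given 20 mM potassium bromate (KBrO3), an oxidizing agent, for 1 hr, or were co-exposed to KBrO3 and 150 μM bisphenol A (BPA), a monomer of plastics with estrogen-like activity. BPA was present in the co-exposed dishes before, during and after KBrO3, and RNA was taken at 4 or 24 hr. The second set of 9 arrays held its own untreated cells and cells kept in 150 μM BPA alone for 4 or 24 hr by the labels, whereas the study's methods give an exposure an hour longer. Each of the 8 groups had 3 arrays, 1 per independent experiment. The untreated arrays of the first set are labeled 4 hr and those of the second set carry no time, so at 24 hr the treatment and the time in culture cannot be told apart when cells are compared with controls.

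TGF-β ligands are secreted in a latent form and, once released, bind a pair of receptor kinases that phosphorylate the transcription factors SMAD2 and SMAD3. BMPs use related receptors and SMAD1, SMAD5 and SMAD9. The phosphorylated SMADs join SMAD4, enter the nucleus and act on target genes, among them the inhibitory SMADs that switch the receptors off again. In fibroblasts, TGF-β is best known for inducing extracellular matrix and contractile genes. The Id proteins, which block basic helix-loop-helix transcription factors, are classical BMP targets. Ctgf, now named Ccn2, encodes a matrix-associated protein that responds to TGF-β and also to YAP, the effector of the Hippo pathway.

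Levels are given as the log2 of the probe's processed signal minus the log2 of the 75th percentile of its array, so that 0 is the 75th percentile and a difference of 1 is a 2-fold change. Levels of different probes are not comparable. Each treatment was set against the controls of its own set, and a gene counted as called when the Benjamini-Hochberg adjusted p over all probes of the set was below 0.05 and the fold change exceeded 1.5. Adjusted p-values are from limma. The share of spots well above background ran from 57.66% to 68.07% across the first set, and across the second from 76.41% to 79.42%. The median residual SD of a probe was 0.106 for the first set but 0.318 for the second, so a given fold change was harder to call for BPA alone. Of 10 fibroblast markers, 9 were well above background on all arrays of the first set and 10 on all arrays of the second, while Cdh1, Pecam1, Ptprc and Des, which define epithelial, endothelial, blood and muscle cells, were so on no array of the first set. On the second set the last 3 were again on no array, but Cdh1 was on all 9, at a level of -5.46 in the untreated cells. Other markers of these cell types gave a signal: Kdr, Tek, Cd68 and Cd3e were well above background on all arrays of both sets, and of the first set Krt18 was on 11 arrays, Myod1 on 10 and Krt8 on 5. The summed signal of each of these lists stayed below the 75th percentile of its array in every group. Xrcc6 itself gave a signal above background on every array, and with no array of intact cells it does not check the labels.

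SMAD complexes recognise short DNA motifs, and the promoters of those members whose levels differed and which the RefSeq promoter table (build GRCm38.p6) holds are shown for that reason. The table holds 5 of the 9 members and has no entry for Tgfb3, Id1, Smad7 and Ctgf. It has 32851 promoters of 300 bases in all, from 250 bases before the start of transcription to 50 after it. The motifs searched on both strands were the palindrome GTCTAGAC, the SMAD-binding core CAGAC, the BMP-type site GGCGCC, that site followed after 5 bases by GTCT, the longer SMAD site AGCCAGACA and the TEAD site GGAATG. The core is contained in the longer SMAD site, and the BMP-type site in its spaced form. Capitals below mark every match, and each line runs 5′ to 3′ on the strand of the gene. Tgfb2 lies on the minus strand at chr1:186705990-186706239, Id2 on the minus strand at chr12:25096093-25096342, Id3 on the plus strand at chr4:136143572-136143821 and Smad6 on the minus strand at chr9:64022056-64022309.
Tgfb2: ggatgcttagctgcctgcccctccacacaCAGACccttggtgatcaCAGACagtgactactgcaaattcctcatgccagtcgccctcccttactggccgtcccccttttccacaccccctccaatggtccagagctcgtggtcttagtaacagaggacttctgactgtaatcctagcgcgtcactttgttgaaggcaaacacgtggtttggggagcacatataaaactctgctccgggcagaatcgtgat
Id2: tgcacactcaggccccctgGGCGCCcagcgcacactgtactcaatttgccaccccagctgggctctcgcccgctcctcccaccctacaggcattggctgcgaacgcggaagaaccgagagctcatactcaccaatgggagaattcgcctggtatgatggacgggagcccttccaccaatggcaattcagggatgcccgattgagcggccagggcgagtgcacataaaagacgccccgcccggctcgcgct
Id3: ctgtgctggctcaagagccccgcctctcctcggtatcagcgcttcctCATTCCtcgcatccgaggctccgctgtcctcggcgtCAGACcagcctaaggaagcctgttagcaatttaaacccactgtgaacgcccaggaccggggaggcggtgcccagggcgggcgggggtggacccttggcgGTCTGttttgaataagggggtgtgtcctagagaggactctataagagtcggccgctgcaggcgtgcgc
Smad6: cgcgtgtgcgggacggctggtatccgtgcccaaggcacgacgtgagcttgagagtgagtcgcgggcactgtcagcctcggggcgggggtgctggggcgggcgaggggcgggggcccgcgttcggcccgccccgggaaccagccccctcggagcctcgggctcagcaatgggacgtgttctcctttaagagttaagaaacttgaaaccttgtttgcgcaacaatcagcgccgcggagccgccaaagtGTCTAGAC

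The Smad6 stretch is carried 4 bases past the start so that its match is whole. Smad6 held the palindrome GTCTAGAC across its start site, from base -4 to base 4, a motif found in 0.213% of all promoters in the table. Tgfb2 held 2 copies of CAGAC and Id3 held 1 on each strand, and 49.6% of promoters hold this short motif at least once. Id2 held GGCGCC, present in 11.9% of promoters, and Id3 held the TEAD letters on its minus strand, present in 14.7%. The Tgfb1 promoter held none of the 6 motifs in this window. A match is a description of the letters and no evidence that a factor binds there.

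Against untreated cells of the first set, members were called in both directions at 4 hr, and those called at 24 hr were lower. KBrO3 alone at 4 hr called 6 of the 9 members, with Id1, Smad7 and Ctgf higher and Tgfb2, Tgfb3 and Smad6 lower, where 43.9% of all 13856 genes tested were called. Co-exposure at 4 hr called 5, with Id1 and Smad7 higher and Tgfb2, Tgfb3 and Smad6 lower, against 54.5% of all genes. KBrO3 alone at 24 hr called 2, both lower (Tgfb2 and Tgfb3), against 33.8% of all genes in either direction and 21.0% lower. Co-exposure at 24 hr called 6, all lower (Tgfb2, Tgfb3, Id2, Id3, Smad6 and Ctgf), against 39.7% called in either direction and 23.9% called lower. With so large a share of the transcriptome called, these counts say little about the members as a group, and the sizes and directions of single genes carry the description. BPA alone called 2 members at 4 hr, both higher (Id3 and Smad7), against 4.73% of 15451 genes in either direction and 3.05% higher, and none at 24 hr, against 4.34%. By limma, 3 of the 9 had an unadjusted p below 0.05 at 24 hr, and none passed the methods' thresholds of a Bonferroni-adjusted p below 0.01 and 1.5-fold, which 0.0324% of all genes passed. These genes, Tgfb3, Smad6 and Ctgf, had a Benjamini-Hochberg adjusted p of 0.071, 0.15 and 0.122.

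**Figure D1:**
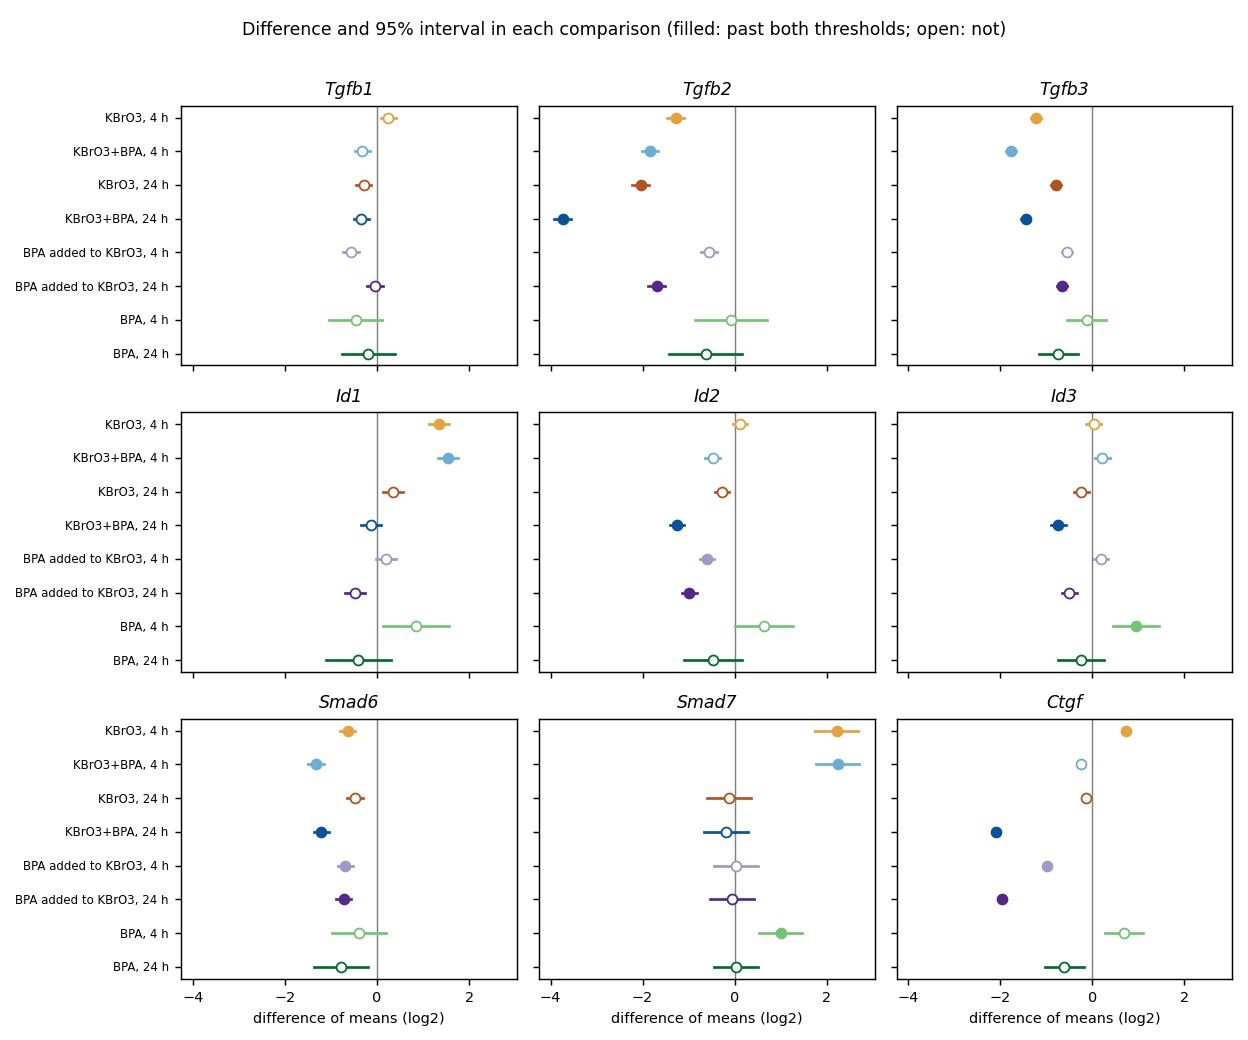
Difference between group means (log2, x axis) for the 9 genes in 8 comparisons, with its 95% interval as a line. Filled points passed both thresholds and open points did not; Tgfb2 after co-exposure at 24 hr lies farthest left, at -3.74.

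Of the ligands, Tgfb2, which encodes TGF-β2, changed most in the first set. Its level on the untreated arrays was 1.60, 1.60 and 1.54, and it was 0.29, 0.31 and 0.29 after KBrO3 at 4 hr and -0.20, -0.28 and -0.30 after co-exposure at 4 hr. At 24 hr it was -0.34, -0.55 and -0.50 after KBrO3 and -2.30, -2.24 and -1.94 after co-exposure. The untreated arrays were the highest and the co-exposed arrays at 24 hr the lowest, and no group overlapped another. Tgfb2 was thus 2.44-fold lower after KBrO3 at 4 hr (difference -1.29, SE 0.0826, adjusted p = 2.26e-08) and 3.58-fold lower after co-exposure at 4 hr (adjusted p = 6.56e-10). At 24 hr it was 4.12-fold lower after KBrO3 (adjusted p = 7.91e-10) and 13.4-fold lower after co-exposure (difference -3.74, SE 0.0826, adjusted p = 2.46e-12). In bulk RNA, fewer cells that express a gene and less of its RNA per cell cannot be told apart. Tgfb2 was measured by a probe at chr1:186149057-186149116 of the mm7 build, on the minus strand.

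Tgfb3, the gene of TGF-β3, also fell in all 4 comparisons with control, with a different order of the groups. Its level was 3.49, 3.52 and 3.55 on the untreated arrays, 2.30, 2.33 and 2.27 after KBrO3 at 4 hr and 1.73, 1.74 and 1.79 after co-exposure at 4 hr. It was 2.66, 2.74 and 2.78 after KBrO3 at 24 hr and 2.12, 2.12 and 1.97 after co-exposure at 24 hr. All treated arrays lay below all untreated arrays, and the lowest were those co-exposed for 4 hr. The differences were -1.22 and -1.77 at 4 hr and -0.79 and -1.45 at 24 hr for KBrO3 and co-exposure respectively (SE 0.0483 each, highest adjusted p = 2.96e-08). From 4 to 24 hr it differed by 0.43 in KBrO3-treated and by 0.32 in co-exposed cells, both under the fold limit. It passed with quantile normalization in the former (0.64, adjusted p = 1.62e-08) and with median scaling in the latter (0.78, adjusted p = 7.54e-06).

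Tgfb1, the gene of the best known isoform, passed the 1.5-fold limit in no comparison with control. Its probe, printed in 10 copies on the array, lay between -0.82 and -0.72 in untreated cells and between -0.57 and -0.50 after KBrO3 at 4 hr. It was between -1.13 and -1.09 after co-exposure at 4 hr, between -1.18 and -0.99 after KBrO3 at 24 hr and between -1.33 and -1.02 after co-exposure at 24 hr. KBrO3 at 4 hr was the only treatment above the controls, by 0.24 (95% interval 0.08 to 0.41), and the other 3 gave differences of -0.32, -0.29 and -0.34 in the order named. These 3 groups overlapped one another. With normexp the difference after KBrO3 at 4 hr was 0.026, and with median scaling that after co-exposure at 24 hr was -0.0228.

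**Figure D2:**
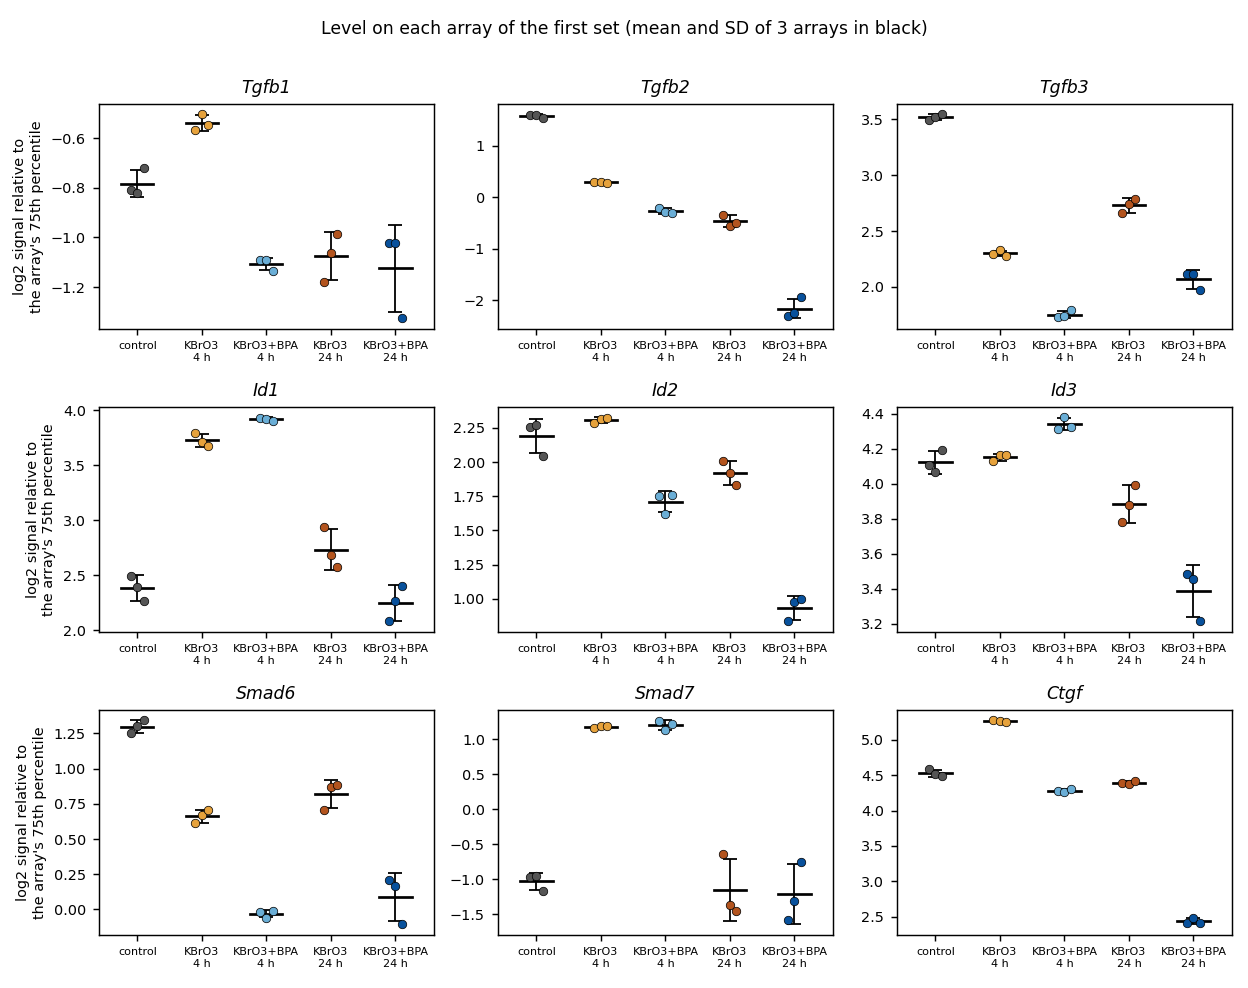
Level of each gene on each of the 15 arrays of the first set (y axis, log2 signal relative to the array's 75th percentile; scales differ between panels), with mean and SD of 3 arrays in black. Tgfb2 steps down from 1.58 in untreated cells to -2.16 after co-exposure at 24 hr, and Smad7 and Id1 stand highest in both groups at 4 hr.

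Among the Id genes, Id1 rose at 4 hr and did not pass the fold limit in either group at 24 hr, except with normexp background correction after KBrO3 (0.64, adjusted p = 0.00685). Its level was 2.49, 2.39 and 2.26 in untreated cells, 3.79, 3.71 and 3.68 after KBrO3 at 4 hr and 3.93, 3.93 and 3.90 after co-exposure at 4 hr. At 24 hr it was 2.94, 2.68 and 2.58 after KBrO3 and 2.08, 2.26 and 2.40 after co-exposure. The arrays at 4 hr were above all others, and those co-exposed for 24 hr overlapped the untreated ones. Id1 was 2.54-fold higher after KBrO3 at 4 hr (difference 1.34, SE 0.098, adjusted p = 7.67e-08) and 2.90-fold higher in the co-exposed cells of that time (adjusted p = 1.82e-08). At 24 hr the differences were 0.35 (adjusted p = 0.00748) and -0.14 (adjusted p = 0.238). The second Id1 probe, shifted by 10 bases, gave 1.40 and 1.64 at 4 hr and 0.42 and -0.08 at 24 hr.

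Id2 and Id3 did not pass the fold limit with KBrO3 at 4 hr, where the difference was 0.12 for the brighter Id2 probe (95% interval -0.04 to 0.27) and 0.18 for the dimmer one (0.06 to 0.30, adjusted p = 0.0111). For both Id2 probes the KBrO3 arrays lay above all untreated arrays. After co-exposure at 4 hr Id2 differed by -0.48, and it passed the fold limit with median scaling (-0.62). Id2 had a level of 2.26, 2.27 and 2.04 in untreated cells, 2.29, 2.32 and 2.32 after KBrO3 at 4 hr and 1.75, 1.62 and 1.76 after co-exposure at 4 hr. It was 2.01, 1.92 and 1.83 after KBrO3 at 24 hr and 0.83, 0.98 and 1.00 after co-exposure at 24 hr, which was the lowest group and overlapped none. The fall after co-exposure at 24 hr was 2.39-fold (difference -1.26, SE 0.0716, adjusted p = 1.15e-08). The dimmer Id2 probe also fell there, by 0.72, but differed from the brighter one in direction after KBrO3 at 24 hr, with a difference of 0.42 against -0.27, so that no direction is given for Id2 in that comparison. The brighter Id2 probe lies at chr12:22930541-22930600 of mm7 and the dimmer one spans 348 genomic bases, more than its 60 bases of sequence.

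Id3 ran from 4.07 to 4.20 in untreated cells, from 4.13 to 4.17 after KBrO3 at 4 hr, from 4.32 to 4.38 after co-exposure at 4 hr and from 3.78 to 3.99 after KBrO3 at 24 hr. After co-exposure at 24 hr it was 3.48, 3.46 and 3.21, below all other arrays. The difference from control was -0.74 there (SE 0.0727, 1.67-fold lower, adjusted p = 1.72e-06), and it lost the fold limit with median scaling (-0.42) and with normexp background correction (-0.44). At 4 hr Id3 differed from control by 0.03 after KBrO3 (95% interval -0.13 to 0.19) and by 0.22 after co-exposure, both under the fold limit.

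The inhibitory SMADs, which compete for the receptors and recruit ubiquitin ligases to them, went opposite ways at 4 hr. Smad7, which limits TGF-β and BMP signaling, had a level of -0.97, -0.96 and -1.17 in untreated cells, 1.16, 1.19 and 1.19 after KBrO3 at 4 hr and 1.26, 1.13 and 1.22 after co-exposure at 4 hr. At 24 hr it was -0.64, -1.36 and -1.46 after KBrO3 and -1.59, -1.31 and -0.75 after co-exposure. The 6 treated arrays at 4 hr stood far above the rest, and at 24 hr both treated groups overlapped the controls and spread more widely. That spread ran with the slide. The arrays on the slide shared by both groups were -1.36 and -1.46 after KBrO3 and -1.59 and -1.31 after co-exposure. Those on other slides were -0.64 and -0.75. The part of the slide was not tested. Smad7 was 4.63-fold higher after KBrO3 at 4 hr (difference 2.21, SE 0.217, adjusted p = 1.29e-06) and 4.71-fold higher after co-exposure (adjusted p = 1.04e-06). At 24 hr the differences were -0.12 (95% interval -0.60 to 0.35) and -0.18 (-0.66 to 0.29).

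Smad6, which acts mainly against BMP signaling, fell at 4 hr instead. Its level was 1.25, 1.30 and 1.34 in untreated cells, 0.61, 0.67 and 0.70 after KBrO3 at 4 hr and -0.02, -0.06 and -0.01 after co-exposure at 4 hr. It was 0.70, 0.87 and 0.88 after KBrO3 at 24 hr and 0.21, 0.16 and -0.11 after co-exposure at 24 hr. Untreated arrays were the highest, and the 2 co-exposed groups were the lowest and overlapped each other. Smad6 was 1.56-fold lower after KBrO3 at 4 hr (adjusted p = 7.93e-06), 2.51-fold lower after co-exposure at 4 hr (difference -1.33, SE 0.076, adjusted p = 6.33e-09) and 2.31-fold lower after co-exposure at 24 hr (adjusted p = 2.84e-08). After KBrO3 at 24 hr the difference was -0.48, under the fold limit. With normexp background correction the difference after KBrO3 at 4 hr was -0.45, also under the fold limit. Its promoter, printed above, is the only 1 of those searched that holds the SMAD palindrome. Tgfb3, Id1, Smad7 and Ctgf had no promoter to search. A link between this match and the levels was not tested.

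Ctgf had the tightest replicates of the members in the first set, with a residual SD of 0.0338. Its level was 4.58, 4.51 and 4.48 in untreated cells and 5.27, 5.26 and 5.25 after KBrO3 at 4 hr, but 4.27, 4.26 and 4.31 after co-exposure at 4 hr. It was 4.39, 4.38 and 4.42 after KBrO3 at 24 hr and 2.41, 2.49 and 2.42 after co-exposure at 24 hr. KBrO3 arrays at 4 hr were the highest and co-exposed arrays at 24 hr by far the lowest, and no group overlapped another. Ctgf was 1.67-fold higher after KBrO3 at 4 hr (difference 0.74, SE 0.0375, adjusted p = 2.49e-09) and 4.25-fold lower after co-exposure at 24 hr (difference -2.09, adjusted p = 4.49e-13). Quantile normalization reduced the first of these to 0.44, under the fold limit. Its probe lies at chr10:24349402-24349461 of mm7.

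To ask what BPA added to the oxidant, co-exposed cells were compared with cells given KBrO3 alone at the same time. At 4 hr, 3 members were lower with BPA (Id2, Smad6 and Ctgf) and none was higher, where 19.6% of all genes were called and 9.05% were called lower. At 24 hr, 5 members were lower with BPA (Tgfb2, Tgfb3, Id2, Smad6 and Ctgf) and none was higher, where 14.2% of all genes were called and 7.63% were called lower. These comparisons share the co-exposed arrays with those against control and are no independent evidence.

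Ctgf differed most between co-exposure and KBrO3 alone. It was 1.98-fold lower with BPA at 4 hr (difference -0.98, 95% interval -1.06 to -0.90, adjusted p = 6.81e-09) and 3.88-fold lower at 24 hr (difference -1.96, -2.04 to -1.88, adjusted p = 3.71e-11). Tgfb2 differed by -0.56 at 4 hr, under the fold limit, and was 3.25-fold lower with BPA at 24 hr (difference -1.70, adjusted p = 1.69e-08). Without replicate 1 of the co-exposed arrays at 4 hr, the Tgfb2 difference was -0.59 and just passed, as it did with slide as a random block (-0.60, adjusted p = 0.000727) and with median scaling (-0.70). Smad6 was lower with BPA by 0.69 at 4 hr and 0.73 at 24 hr, and Tgfb3 by 0.66 at 24 hr. Id2 was lower by 0.60 at 4 hr and 0.98 at 24 hr, and the first of these was -0.56 without replicate 2 of the co-exposed arrays, under the fold limit, as it was with quantile normalization (-0.54) and the mean over probes (-0.45). The dimmer Id2 probe gave -0.30 at 4 hr, under the fold limit, and -1.14 at 24 hr. Tgfb1 was -0.57 apart at 4 hr (adjusted p = 7.13e-05) and Smad7 0.02 apart (95% interval -0.45 to 0.50), neither past the fold limit. Tgfb1 passed with quantile normalization (-0.60) and median scaling (-0.71), as Tgfb3 did at 4 hr with median scaling (-0.69) and Id3 at 24 hr with quantile normalization (-0.63). Tgfb3 and Smad6 at 24 hr did not pass with median scaling (-0.49 and -0.56). Within the 1 slide that held both groups at 24 hr, with 2 arrays each, the differences were -1.75 for Tgfb2, -0.65 for Tgfb3, -0.97 for Id2, -0.69 for Smad6 and -1.95 for Ctgf.

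The change between the times was tested in the same way. From 4 to 24 hr after KBrO3 alone, 4 members were lower (Tgfb2, Id1, Smad7 and Ctgf), where 47.7% of all genes were called and 28.6% were called lower. After co-exposure, 6 were lower (Tgfb2, Id1, Id2, Id3, Smad7 and Ctgf), where 57.4% were called and 34.1% were called lower. With quantile normalization the Ctgf change after KBrO3 was -0.42, under the fold limit, and with median scaling the changes of Id2 and Id3 after co-exposure were -0.31 and -0.50, likewise under it. Smad7 dropped 5.04-fold between the times after KBrO3 and 5.35-fold after co-exposure. The effect of BPA on KBrO3-treated cells itself differed between 4 and 24 hr for 4 members (Tgfb2, Id1, Id3 and Ctgf), each of them toward lower levels at 24 hr, where 26.6% of all genes were called for this interaction and 13.4% in the same direction. The interaction was -1.14 for Tgfb2 (adjusted p = 1.33e-05), -0.98 for Ctgf (adjusted p = 1.44e-07), -0.69 for Id3 (adjusted p = 0.000196) and -0.68 for Id1 (adjusted p = 0.00161). Without replicate 1 of the KBrO3 arrays at 24 hr, the Id1 value was -0.58, under the fold limit, as it was with slide as a random block (-0.51) and median scaling (-0.37). With normexp the adjusted p for Id1 was 0.0828. The Id3 call was lost with median scaling (-0.38, adjusted p = 0.0586) and normexp (adjusted p = 0.117). For Id2 the probes differed, with -0.38 for the brighter and -0.84 for the dimmer one, the latter past the threshold, as was the mean over both (-0.61). Tgfb1 went the other way, with 0.52 (adjusted p = 0.00186), under the fold limit, and it passed with median scaling (0.83) and without replicate 3 of the co-exposed arrays at 24 hr (0.62, adjusted p = 3.16e-05). For Smad6 it was -0.04 (95% interval -0.27 to 0.20) and for Smad7 -0.08 (-0.76 to 0.59).

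Slides are a limit on the first set. Deviations of arrays on the same slide were alike there, with a consensus correlation of 0.634 by limma, beside 0.115 in the second set. The main fit treated arrays as independent, so its SEs and adjusted p-values can make differences look firmer than the design allows. All arrays after KBrO3 at 4 hr lay on 1 slide, as did all those after co-exposure at 4 hr. KBrO3 at 4 hr shared a slide with 1 untreated array, and within it the differences were -1.25 for Tgfb2, 1.46 for Id1, -0.68 for Smad6, 2.35 for Smad7 and 0.78 for Ctgf. No other treated group shared a slide with an untreated array, so there slide and treatment cannot be told apart. Between the treated groups at 4 hr, too, no slide held both.

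BPA alone was measured in the second set, whose replicates spread more widely. Id3 was 3.94, 3.97 and 3.64 in its untreated cells, 4.90, 4.59 and 4.90 after BPA at 4 hr and 3.71, 3.86 and 3.23 at 24 hr. Smad7 was 0.02, -0.16 and -0.38 in untreated cells, 0.78, 0.87 and 0.83 after BPA at 4 hr and 0.17, -0.14 and -0.45 at 24 hr. For both genes the arrays at 4 hr lay above all untreated arrays and the arrays at 24 hr overlapped them. Id3 was 1.92-fold higher at 4 hr (difference 0.94, SE 0.222, adjusted p = 0.0484) and Smad7 2.00-fold higher (difference 1.00, SE 0.21, adjusted p = 0.0319).

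Both calls sat close to the threshold. The Id3 call was lost without any 1 of the 6 arrays compared, with differences from 0.84 to 1.05 and adjusted p from 0.0796 to 0.196. The Smad7 call was lost without replicate 2 or 3 of the controls or any 1 of the BPA arrays, with differences from 0.89 to 1.02 and adjusted p from 0.0857 to 0.138, and it held without replicate 1 of the controls. With replicate number as a block the adjusted p was 0.0934 for Id3 and 0.062 for Smad7. Within the 1 slide that held arrays of both groups, Id3 differed by 0.96 and Smad7 by 0.78.

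The other members gave these values for BPA alone. Ctgf was 4.74, 4.76 and 4.95 in untreated cells, 5.42, 5.67 and 5.41 at 4 hr and 4.38, 4.24 and 3.99 at 24 hr, with no overlap between the groups. Its difference from control was 0.69 at 4 hr (95% interval 0.26 to 1.11, adjusted p = 0.0798) and -0.61 at 24 hr (-1.03 to -0.19). Id1 differed by 0.85 at 4 hr (0.14 to 1.55, adjusted p = 0.184) and Id2 by 0.64 (0.01 to 1.26, adjusted p = 0.258).

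For the ligands the intervals of BPA alone were wide. Tgfb2 was 2.34, 0.98 and 1.95 in untreated cells, 1.27, 2.08 and 1.67 at 4 hr and 1.28, 0.94 and 1.15 at 24 hr, so that 5 of the 6 treated values lay within the range of the controls. The difference was -0.08 at 4 hr (-0.87 to 0.71) and -0.63 at 24 hr (-1.42 to 0.15). Tgfb3 at 24 hr was 3.00, 3.21 and 3.47 against 3.94, 4.10 and 3.86 in untreated cells, without overlap. The difference was -0.74 (-1.17 to -0.32) and missed the adjusted threshold. It passed in the fit on the mean over probes (adjusted p = 0.0354). Tgfb3 has 1 probe, so its difference was the same in that fit. Smad6 was 0.93, 0.98 and 1.07 at 24 hr against 1.32, 2.21 and 1.80, also without overlap, a difference of -0.79 (-1.37 to -0.20). From 4 to 24 hr in BPA, 3 members were lower, where 4.33% of all genes were called and 3.07% were called lower. These were Ctgf (difference -1.30, adjusted p = 0.00756), Id3 (-1.20, adjusted p = 0.0201) and Smad7 (-0.97, adjusted p = 0.0387). The Id3 call was lost without any 1 of the arrays at 4 hr or without replicate 3 at 24 hr, and the Smad7 call without any 1 of the arrays at 4 hr or without replicate 2 or 3 at 24 hr. Without replicate 1 at 24 hr, Id1 also passed (-1.54, adjusted p = 0.0343). With quantile normalization or the mean over probes, Id1 and Id2 passed too, and Id2 did with only the 6 arrays compared. Normexp and a fixed slide block lost all 3 calls, and median scaling left Ctgf alone. The Smad7 call was also lost with no filter, with only the 6 arrays compared and with the replicate block (adjusted p = 0.0655). Tgfb1 differed from control by -0.46 at 4 hr (-1.04 to 0.12) and -0.19 at 24 hr (-0.77 to 0.39).

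**Figure D3:**
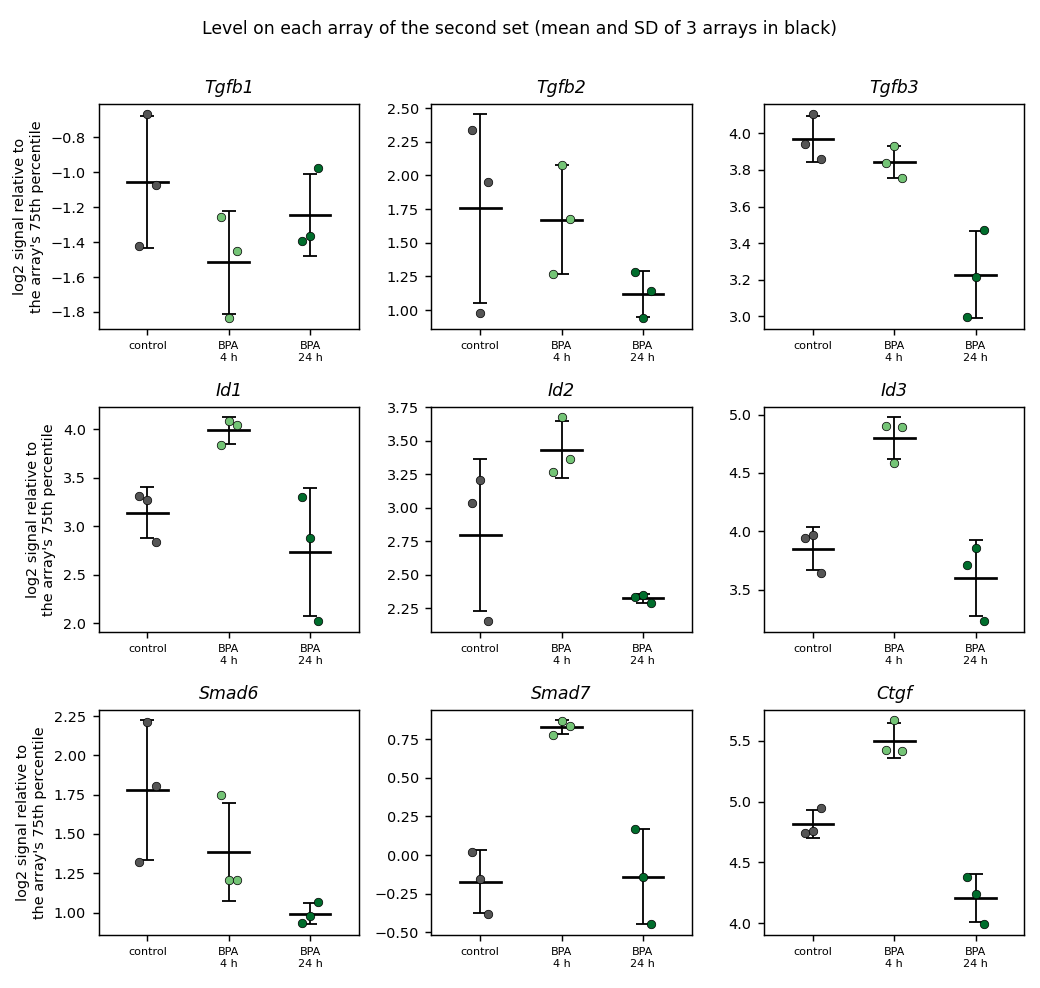
Level of each gene on each of the 9 arrays of the second set (y axis, log2 signal relative to the array's 75th percentile; scales differ between panels), with mean and SD of 3 arrays in black. Id1, Id2, Id3, Smad7 and Ctgf are highest at 4 hr in BPA, where only Id3 and Smad7 were called against control, while the 3 untreated arrays of Tgfb2 run from 0.98 to 2.34.

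The other genes of the pathway were taken from a list of 60 arranged by role, of which 59 were tested in the first set and all 60 for BPA alone. KBrO3 at 4 hr called 21 higher and 7 lower, co-exposure at 4 hr 20 higher and 10 lower, KBrO3 at 24 hr 4 higher and 22 lower, and co-exposure at 24 hr 5 higher and 34 lower. These are 28, 30, 26 and 39 of 59 genes, beside 43.9%, 54.5%, 33.8% and 39.7% of all genes called in the same comparisons, so at 4 hr the list was called about as often as all genes. The median difference over the list was 0.24, 0.22, -0.38 and -0.89 in this order, beside 0.02, 0.01, -0.07 and -0.06 over all genes tested. Adding BPA to KBrO3 called 5 higher and 5 lower at 4 hr and 2 higher and 15 lower at 24 hr, which are 10 and 17 of 59 genes, beside 19.6% and 14.2% of all genes. Counts for the single roles below are to be read beside the same shares, and with so few genes each they say nothing particular to a role.

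Among the further ligands, 1 of 8 rose and 2 fell with KBrO3 at 4 hr, and 1 rose and 6 fell after co-exposure at 24 hr. Inhba, which encodes the subunit of activin A, a ligand that uses the SMAD2 and SMAD3 branch, rose by 3.90 after KBrO3 at 4 hr (SE 0.0571, adjusted p = 9.23e-14) and by 3.99 after co-exposure at 4 hr. It was still 1.68 and 1.52 above control at 24 hr. Inhbb, the gene of the other activin subunit, fell by 2.61 and 3.74 at 4 hr and by 3.70 and 4.63 at 24 hr. The genes of the 2 activin subunits thus went opposite ways in all 4 comparisons.

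Of 11 receptors tested, 2 rose and 3 fell with KBrO3 at 4 hr, and none rose and 7 fell after co-exposure at 24 hr. Acvr1b, a type I receptor for activins, fell by 2.92 after KBrO3 at 4 hr and by 2.27 after co-exposure at 4 hr, and Acvr2a, a type II receptor for activins, rose by 1.61 and 1.89. Acvrl1, a type I receptor best known in endothelium, was lower at 24 hr with both treatments, but its probe was well above background on only 2 of 3 arrays after KBrO3 and 1 of 3 after co-exposure, so no size is given. Of the 6 signaling SMADs, 4 rose with KBrO3 at 4 hr, led by Smad1 (difference 1.62, adjusted p = 5.04e-11), and none was called against control at 24 hr.

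Most feedback inhibitors of the list were called higher at 4 hr. With KBrO3, 6 of 7 rose and none fell, where 43.9% of all genes were called, and after co-exposure the count was again 6, where 54.5% were called. Pmepa1, which sequesters SMAD2 and SMAD3, rose by 3.42 and 3.24 at 4 hr and was still 1.19 above control after KBrO3 at 24 hr. Among 6 secreted antagonists, 4 rose with KBrO3 at 4 hr, led by Fst, an activin trap (2.08), and 3 rose after co-exposure at 4 hr, led by Grem1, a BMP antagonist (2.79). After co-exposure at 24 hr, 3 inhibitors rose and Bambi, a decoy receptor, fell by 1.08.

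The genes for latency and activation of the ligands and the targets were called more often at 24 hr than at 4 hr. Of 7 latency genes, 1 fell with KBrO3 at 4 hr, 2 with KBrO3 at 24 hr and 6 after co-exposure at 24 hr, led by Thbs1, whose thrombospondin releases active TGF-β (difference -3.61, SE 0.0877, adjusted p = 5.55e-12). Of 11 further targets, 3 rose with KBrO3 at 4 hr and none fell, and after co-exposure at 4 hr 3 rose and 1 fell (Cyr61). With KBrO3 at 24 hr none rose and 7 fell. After co-exposure at 24 hr none rose and 9 fell, led by Acta2, the smooth muscle actin of activated fibroblasts (difference -4.44, SE 0.0571, adjusted p = 3.85e-14). Acta2 was 4.60, 4.55 and 4.65 in untreated cells and 0.22, 0.22 and 0.03 in those cells.

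**Figure D4:**
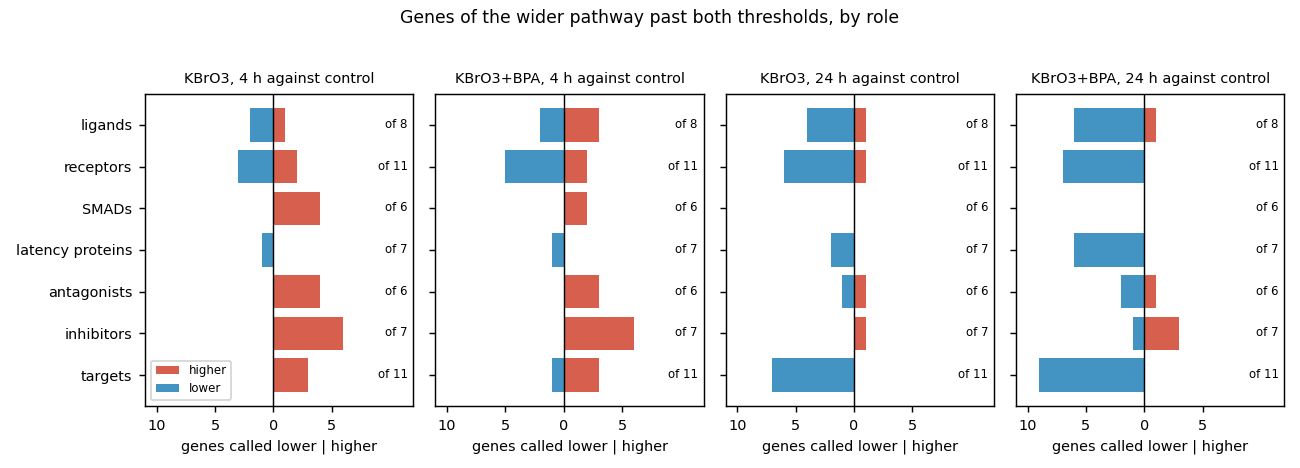
Number of genes called lower (left) or higher (right) against untreated cells in 7 groups of the wider list (x axis, genes), with the number tested at the right edge of each row. Inhibitors rise at 4 hr (6 of 7 in both panels), and targets fall at 24 hr (7 and 9 of 11).

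Id4, the remaining Id gene, rose by 1.28 with KBrO3 at 4 hr and fell by 2.28 after co-exposure at 24 hr. The YAP targets of the list beside Ctgf are Ankrd1, Amotl2 and Cyr61, and all were called lower after co-exposure at 24 hr. Ankrd1 was at least 2.67-fold lower there, a bound because its probe was not well above background in those cells, and Amotl2 differed by -2.15. Amotl2 was also called lower after KBrO3 at 4 hr (-1.58), where Ctgf was called higher, and after KBrO3 at 24 hr (-1.09), where Ctgf was not called. Cyr61, counted above with the further targets, was also called lower after co-exposure at 4 hr and was not called after KBrO3 alone at either time.

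BPA alone called 5 genes of the list at 4 hr, all higher, and 2 at 24 hr, both lower, of 60 genes each, beside 4.73% and 4.34% of all genes, and those named here were chosen after their values were seen. At 4 hr they included Junb, a transcription factor gene (difference 1.89, adjusted p = 0.00404), Pmepa1 (1.48, adjusted p = 0.0438) and Skil (0.88, adjusted p = 0.0473). At 24 hr they were Id4 (-1.54, adjusted p = 0.0145) and Bmp4 (-0.99, adjusted p = 0.0274). The count at 4 hr was 3 without any 1 of the BPA arrays or without replicate 2 or 3 of the controls, and the count at 24 hr was 1 without replicate 3 of the controls or replicate 1 or 2 of the BPA arrays.

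Of the 10 fibroblast markers, at 4 hr KBrO3 alone called 1 lower and co-exposure 4, at 24 hr each treatment called 9 lower, and none was called higher. Their summed signal, in multiples of each array's 75th percentile, was 1360 to 1450 in untreated cells, 1240 to 1300 after KBrO3 and 1060 to 1090 after co-exposure at 4 hr, and 496 to 547 after KBrO3 and 382 to 433 after co-exposure at 24 hr. The marker list shares Col1a1, Col1a2, Col3a1 and Fn1 with the target list. The summed blood markers were 0.207 to 0.238 in untreated cells, 0.694 to 0.75 after KBrO3 at 4 hr, and were 0.466 to 0.533 after co-exposure at 24 hr, with Cd68 called higher in all 4 comparisons with control, Cd3e called lower after co-exposure at 24 hr and Ptprc not above background. Of the endothelial markers, Kdr was also called higher in all 4 and Tek lower after co-exposure at 24 hr. At 4 hr Krt8 was higher after both treatments, and co-exposure called Krt18 lower and Myog and Myod1 higher, with Myod1 lower after co-exposure at 24 hr. The part of any of these lists in the lower levels of Tgfb2, Id2, Ctgf and the matrix genes at 24 hr was not tested.

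For each member, the 2 genes whose pattern over the 15 arrays of the first set was most like it were found among 11569 genes. Pearson's r was 0.994 for Tgfb2 with Npr3 and 0.99 with Gulp1, 0.993 for Tgfb3 with Phip, 0.995 for Id1 with Slc35e2 and 0.994 for Smad7 with Sap18. Id2 and Ctgf had Tiam2 in common, with r of 0.982 and 0.983. The lowest of the leading values was 0.971, for Tgfb1 with Map3k1. The 15 arrays fall into 5 groups of like arrays, so these values describe likeness of group means, and the arrays share their scaling and slides.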

How the data were processed

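RNA of 24 samples was hybridised to 1-colour Agilent mouse arrays. The authors deposited Feature Extraction output, whose processed signal is a background-subtracted intensity per spot, and a value table whose intensity values all equal those of the scanner files within a relative tolerance of 1e-06. Per the labels, Agilent Feature Extraction 12.0 was used, whereas the file headers give 9.5.3.1 for the first set. The members and the gene lists were chosen with earlier results of these data known. All members are named in every comparison, and from each pathway list the called gene with the largest rise and the largest fall.

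Control and outlier spots were left out, spots of a probe averaged, and log2 intensity centred on each array's 75th percentile. A probe was tested in a set if all 3 arrays of some group there had it well above background, which 27310 and 31810 probes met. Each set was fitted on its own with limma 3.58.1 (lmFit, eBayes) in R 4.3.3, with Benjamini-Hochberg adjustment over all probes, and the code was tested on simulated data. The probe with the highest mean over 24 arrays stands for a gene. Precision is bounded by having 3 arrays in each group. Replicate numbers did not pair the samples (mean correlation of deviations -0.0294 and 0.00202). Coordinates of probes are those of the files (mm7), and whether they lie in an exon or UTR was not analysed here. Alternatives were median and quantile scaling, normexp with an offset of 50, no filter, the mean over probes, other sample sets, slide and replicate blocks, the methods' thresholds and leaving out each array. Some genes of the pathway lists enter the counts and are not reported here by name.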

Additional observations from a re-analysis of the deposited data

Results flagged for a closer look

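The change from 4 to 24 hr differed from 0 by limma for several members. After KBrO3 alone the log2 difference was -0.756 for Tgfb2, -0.993 for Id1, -2.33 for Smad7 and -0.867 for Ctgf. After co-exposure it was -1.9 for Tgfb2, -1.67 for Id1, -0.775 for Id2, -0.957 for Id3, -2.42 for Smad7 and -1.84 for Ctgf. In BPA alone it was -1.2 for Id3, -0.968 for Smad7 and -1.3 for Ctgf.

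The effect of BPA on KBrO3-treated cells differed between 24 and 4 hr by -1.14 for Tgfb2, -0.678 for Id1, -0.689 for Id3 and -0.975 for Ctgf.

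At 4 hr, Id2 and Ctgf lay above control on every array in BPA alone and below the KBrO3 arrays on every array when BPA was added to KBrO3. The share of all genes with this pattern is not given, so it is not read as particular to these 2. In BPA alone Id2 was 0.637 and Ctgf 0.686 above control. Neither value passed the adjusted threshold in BPA alone, and the difference between the effects was not tested, since they come from different array sets.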

How the results depend on the processing

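The counts of called members against control in the first set kept within 1.5 times of the main count under the alternatives run. Counts for BPA alone were the least stable. Members called at 4 hr in BPA (2) became 0 with median scaling, no filter, normexp, a fixed slide block or the methods' thresholds, 1 with quantile normalization or only the 6 arrays compared, and 3 with the mean over probes, where Ctgf was added (adjusted p = 0.0465). Those called between the times in BPA (3) became 5 with the mean over probes or quantile normalization, 1 with median scaling, and 0 with normexp, a fixed slide block or the methods' thresholds. At 24 hr in BPA, 1 member, Tgfb3, was called with the mean over probes. Ctgf and Tgfb3 have 1 probe each, so their differences were the same in this fit, and only its spread estimate and adjustment differed. Of the pathway list at 4 hr in BPA (5), 3 were called with no filter or only the 6 arrays and 0 with normexp, a fixed slide block or the methods' thresholds. At 24 hr (2) the count was 1 with median scaling or only the 6 arrays, 4 with quantile normalization and 0 with normexp, a fixed slide block or the methods' thresholds. For BPA added to KBrO3, median scaling called 6 members and 17 list genes at 4 hr and 3 members at 24 hr, and the methods' thresholds called 1 member at 4 hr. The interaction called 2 members with normexp and 1 with the methods' thresholds, which also called 2 between the times after KBrO3. Leaving out 1 array, the counts ran from 0 to 1 (members, BPA at 4 hr), 1 to 4 (members between the times in BPA), 3 to 4 (list, BPA at 4 hr) and 1 to 2 (list, BPA at 24 hr). With the replicate block, 0 members were called for BPA at 4 hr and 1 list gene at 24 hr. The numbers only name samples, and the block moved no other count by over 1.5 times.

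Differences that changed sign were none of them called. With median scaling these were Ctgf (0.0191) and Smad7 (0.0258) after KBrO3 at 24 hr, Id1 (0.183) and Smad7 (0.134) after co-exposure at 24 hr, Smad7 (-0.118) for BPA added at 4 hr, Smad7 (0.109) and Tgfb1 (0.121) for BPA added at 24 hr, Tgfb1 (0.442) between the times after co-exposure, and the interaction for Smad6 (0.275), Smad7 (0.227) and Tgfb3 (0.198). With normexp they were Ctgf (0.226), Id2 (0.00807) and Id3 (0.0837) after KBrO3 at 24 hr, Ctgf (0.069) and Id1 (0.127) after co-exposure at 4 and 24 hr, and the Smad6 interaction (0.0117). With quantile normalization they were Ctgf (0.0228) after KBrO3 at 24 hr, Id2 (-0.026) and Id3 (-0.181) after KBrO3 at 4 hr, Id3 (0.0919) between the times after KBrO3 and Tgfb1 (0.0313) between the times after co-exposure. A fixed slide block gave Id3 (-0.0445) after KBrO3 at 4 hr, Tgfb1 (0.00142) for BPA added at 24 hr, Id1 (0.0375) in BPA at 24 hr, Smad6 (0.157) and Tgfb1 (0.0688) in BPA at 4 hr, and Tgfb1 (-0.579) and Tgfb2 (0.512) between the times in BPA. A random slide block gave Id3 (-0.0226) after KBrO3 at 4 hr, Smad7 (0.0852 and 0.0367) after KBrO3 and co-exposure at 24 hr, and Smad7 (-0.256) for BPA added at 4 hr and (0.208) for the interaction. The mean over probes gave Id2 (0.0741) after KBrO3 at 24 hr. Leaving out 1 array, the values ran from -6.67e-05 to 0.0642 (Id3, KBrO3 at 4 hr), from -0.379 to 0.0297 and -0.418 to 0.0035 (Smad7, KBrO3 and co-exposure at 24 hr), from -0.00582 to 0.061 and -0.294 to 0.196 (Smad7, BPA added at 4 and 24 hr), from -0.319 to 0.172 and -0.0971 to 0.0613 (interaction, Smad7 and Smad6), from -0.0998 to 0.0529 (Tgfb1, BPA added at 24 hr), from -0.0695 to 0.0832 (Tgfb1 between the times after co-exposure), from -0.124 to 0.184 and -0.374 to 0.00392 (Smad7 and Tgfb1, BPA at 24 hr) and from -0.471 to 0.208 (Tgfb2, BPA at 4 hr). The cause was not tested in any of these.

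Tgfb3 after KBrO3 at 24 hr dropped under the fold limit with normexp (-0.47). Other members that crossed a threshold with another scaling, background correction, probe rule or slide block are given beside their values. Against the main scaling, the median of all genes moved by up to 0.46 (median scaling, between the times after co-exposure) and -0.324 (normexp, co-exposure at 4 hr). The interaction could not be fitted on only the 6 arrays compared, nor the fixed slide block where no slide joined the groups.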
